A study of Rattus norvegicus with 12 samples.

Results

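The genes described here encode enzymes of glutathione synthesis, quinone, heme and epoxide metabolism, thioredoxin reduction and superoxide removal. They were chosen by name as Gclc, Gclm, Nqo1, Hmox1, Txnrd1, Txnrd2, Srxn1, Ephx1, Sod1 and Sod2, by a rule that gives names and no expression threshold. The choice was made with earlier results of these data known, so shares and medians set beside all genes are a description. Of these 10 genes, 9 were found among the 33744 genes of the rat liver RNA-seq table, and Srxn1 was not analysed here. All 9 passed the filter on low counts, which left 13687 genes for testing.

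The study asked how preservation of livers donated after circulatory death (DCD) affects the graft. Every liver came from a male Sprague Dawley rat and was exposed to 30 min of warm ischemia, so that no group without ischemia was compared. HOPE 1 h livers were then stored cold for 3 h and given 1 h of hypothermic oxygenated machine perfusion through the portal vein, HMP 1 h livers had the same storage and perfusion without active oxygenation, SCS 4 h livers were kept in static cold storage for 4 h, and WI 30 min livers were taken after warm ischemia alone. Each group had 3 livers with 1 library per liver, numbered here as in the sample titles, and the labels give no age. The HOPE 1 h and HMP 1 h livers (6 perfused) were also set against the SCS 4 h and WI 30 min livers (6 unperfused). The WI 30 min livers had no cold storage. For their part of that contrast, perfusion, cold storage and time after donation cannot be told apart. Total counts ranged between 15262961 and 18343167 per liver. All 8 hepatocyte markers were present in every liver, with albumin (Alb) between 87947 and 154596 CPM (counts scaled to the same total in each liver). HMP 1 h liver 1 stood apart, with 18.7% of its counts on genes of the mitochondrial genome (4.79% and 5.27% in the other HMP 1 h livers, 6.56% to 10.2% in HOPE 1 h, 5.07% to 6.02% in SCS 4 h and 5.07% to 5.77% in WI 30 min livers) and a summed level of 9 Kupffer cell and macrophage markers of 1754 CPM (468 to 1088 CPM in the others). The material was bulk tissue, in which fewer cells of a type and less RNA per cell cannot be told apart.

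Nrf2, the transcription factor encoded by Nfe2l2, is kept low by Keap1, which presents it for degradation. When electrophiles or oxidants modify Keap1, Nrf2 accumulates and binds antioxidant response elements near genes for glutathione synthesis, quinone and heme metabolism and thioredoxin reduction. In the liver the same enzymes meet the burst of reactive oxygen that follows when oxygen returns to ischemic tissue, and the superoxide dismutases take the first step in removing superoxide.

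The core of the antioxidant response element, TGACNNNGC, was searched on both strands of RefSeq promoter windows of the GRCr8 assembly, each covering 250 bases before and 50 bases after a gene start. It was present in 4038 of all 33469 windows (12.1%). Of the 9 listed genes with a window (Hmox1 had none in the table used, and Srxn1 had one), 4 held a match, namely Gclm, Txnrd1, Ephx1 and Sod2. For Txnrd1 and Ephx1 the match was in 1 of 2 windows. Counted by window, as for all genes, 4 of 11 windows held a match (36.4%). Sequence outside these windows was not searched. The stretches below are shown because they carry that match, in capitals, 5′ to 3′ on the strand of the gene, and all 4 matches read as the core on the opposite strand.
Gclm: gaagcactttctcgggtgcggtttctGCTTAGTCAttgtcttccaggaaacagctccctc
Txnrd1: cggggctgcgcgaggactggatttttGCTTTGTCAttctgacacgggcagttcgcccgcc
Ephx1: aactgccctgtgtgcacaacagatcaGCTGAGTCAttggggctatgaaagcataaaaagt
Sod2: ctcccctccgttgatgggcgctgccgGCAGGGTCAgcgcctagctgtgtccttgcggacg
These stretches lie at chr2:213031937-213031996 on the plus strand for Gclm, chr7:22755949-22756008 on the minus strand for Txnrd1, chr13:95263141-95263200 on the minus strand for Ephx1 and chr1:50050170-50050229 on the minus strand for Sod2. The match starts 172 bases before the gene start in Gclm, 78 in Txnrd1, 57 in Ephx1 and 35 in Sod2. Read as the core, the letters are TGACTAAGC in Gclm, TGACAAAGC in Txnrd1, TGACTCAGC in Ephx1 and TGACCCTGC in Sod2. A match of letters is a description, and no binding of Nrf2 was measured.

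Levels between genes were compared per length, in FPKM (counts scaled by gene length and library total) averaged over the 12 livers. Sod1, the cytosolic superoxide dismutase, was highest at 641 FPKM, followed by Ephx1 at 253 FPKM. Gclm had 69.4, Sod2 55.0, Gclc 50.03, Txnrd1 33.5, Hmox1 25.3, Nqo1 21.5 and Txnrd2 12.1 FPKM. Sod1 was above Ephx1, and Ephx1 above Gclm, in 12 of 12 livers. Among the neighbours below, Hmox1 and Nqo1 were the least separated, with Hmox1 higher in 7 of 12 livers, while Nqo1 was above Txnrd2 in 12 of 12.

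The 1 call by edgeR among these genes was between perfused and unperfused livers, with 6 livers on each side. Pairs of groups had only 3 on each side, and some of their log2 fold changes were larger in size. For Gclc it was −1.08 in HMP 1 h over SCS 4 h, against −0.71 in perfused over unperfused livers. Txnrd2 fell in perfused livers, and Gclc and Sod2, although not past the threshold, averaged lower there as well. Ephx1 had its highest levels in the 3 HOPE 1 h livers, above the other 9 livers. Between HOPE 1 h and HMP 1 h, which differ in oxygenation, edgeR called none of the 13687 tested genes, among which 1024 had an unadjusted p under 0.05, and DESeq2 called 15, with none of the 9 among them.

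**Figure D1:**
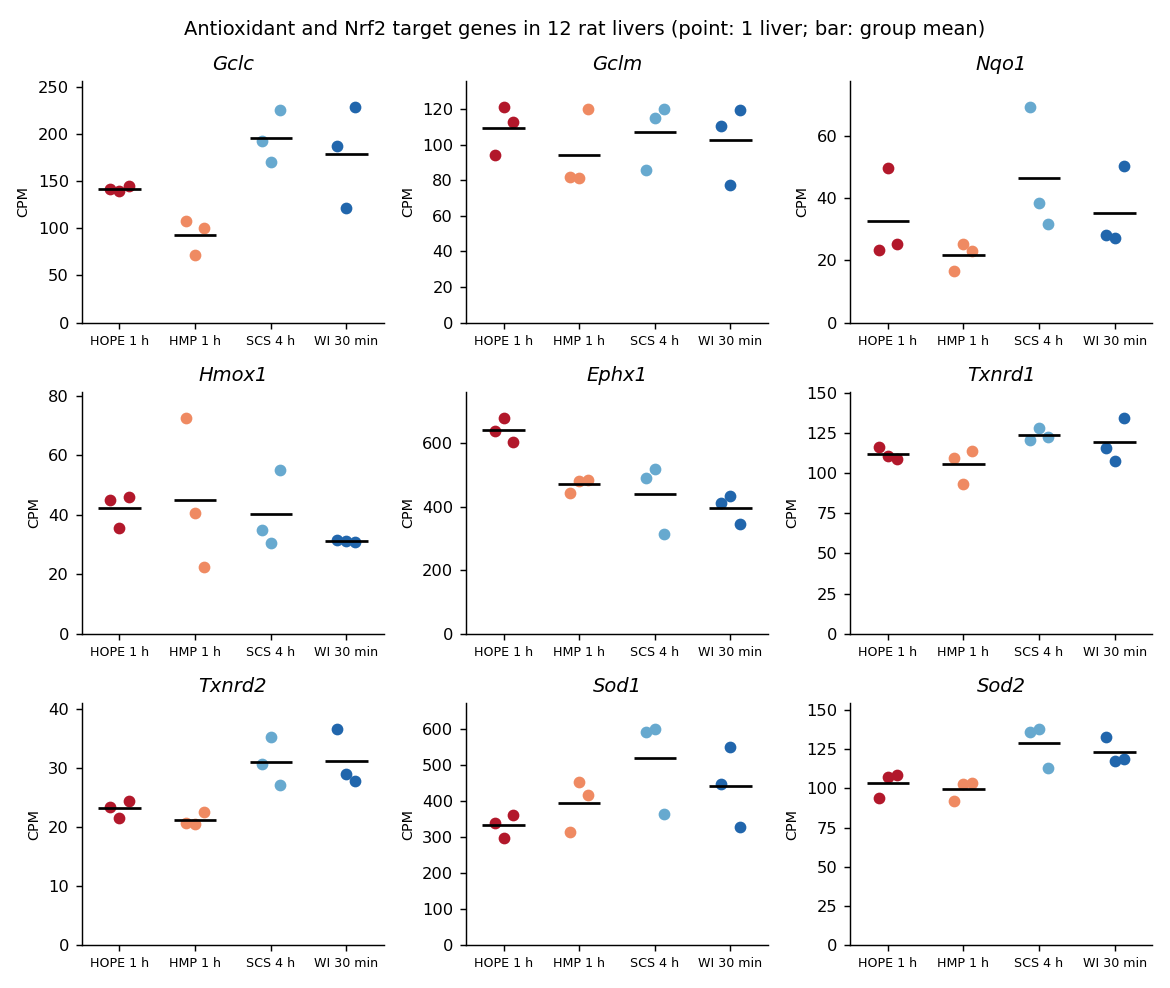
Levels of the 9 genes in CPM (vertical axes, from 0), with 1 point per liver and a bar for the mean of the 3 livers of each group. Txnrd2 and Sod2 sit lower in every HOPE 1 h and HMP 1 h liver than in any SCS 4 h or WI 30 min liver, and Ephx1 is at 606 to 680 CPM in HOPE 1 h livers and at 313 to 519 CPM in the others.

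In perfused against unperfused livers, 1 of the 9 genes was called by edgeR at an adjusted p under 0.05, against 1.02% of all tested genes. Of the 140 genes called, 37 were higher and 103 lower in perfused livers, or 38 and 268 where livers were scaled by library totals alone. At an unadjusted p under 0.05, 1 of the 9 was higher and 5 were lower, against 8.82% and 8.85% of all genes (17.7% in all). DESeq2 called 3 of the 9, Gclc, Sod2 and Txnrd2, at an adjusted p under 0.05, against 5.43% of all genes. The median log2 fold change of the 9 genes was −0.32, with 7 negative and 2 positive, beside a median of 0.03 over all tested genes.

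Txnrd2 (ENSRNOG00000001890, Rnor_6.0 chr11:86667997-86716254, minus strand) encodes thioredoxin reductase of the mitochondria, which keeps mitochondrial thioredoxin reduced. Its counts were 411, 364 and 464 in HOPE 1 h livers 1, 2 and 3, and 360, 328 and 343 in HMP 1 h livers, against 546, 584 and 415 in SCS 4 h livers and 648, 464 and 460 in WI 30 min livers. In CPM, all 6 perfused livers (20.5 to 24.3) lay below all 6 unperfused livers (27.2 to 36.5), as 1.21% of all genes did (0.621% lay above). The means were 22.2 ± 1.56 CPM in perfused and 31.0 ± 3.93 CPM in unperfused livers (SD, n = 6 each), a 0.713-fold level. The log2 fold change was −0.49 with a standard error (SE) of 0.0981 and an edgeR adjusted p of 0.0446. The call is close to the threshold. It was lost without any 1 of 11 livers, that is, each of the 12 except WI 30 min liver 3 (adjusted p 0.0546 to 0.123), while the log2 fold change stayed between −0.42 and −0.53. Scaled by library totals alone, the perfused and unperfused livers overlapped. The sources used here do not give whether strand was used in counting.

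By group, Txnrd2 averaged 23.1 ± 1.41 CPM in HOPE 1 h, 21.2 ± 1.18 CPM in HMP 1 h, 31.0 ± 4.01 CPM in SCS 4 h and 31.1 ± 4.74 CPM in WI 30 min livers (SD, n = 3 each). Neither perfused group overlapped either unperfused group, whereas HOPE 1 h and HMP 1 h livers overlapped, as did SCS 4 h and WI 30 min livers. The log2 fold change was −0.55 both for HMP 1 h over SCS 4 h (adjusted p 0.116) and for HMP 1 h over WI 30 min (adjusted p 0.135). For HOPE 1 h it was −0.42 over SCS 4 h and −0.43 over WI 30 min (adjusted p 0.322 and 0.489). For HOPE 1 h over HMP 1 h it was 0.12, with a 95% interval of −0.18 to 0.43.

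Txnrd1 (ENSRNOG00000009088, chr7:26946125-26984400, minus strand), the cytosolic thioredoxin reductase and a known Nrf2 target, ranged between 109 and 116 CPM in HOPE 1 h, 93.5 and 114 CPM in HMP 1 h, 121 and 128 CPM in SCS 4 h and 107 and 134 CPM in WI 30 min livers. All HOPE 1 h and HMP 1 h livers lay below the SCS 4 h livers, but WI 30 min livers overlapped with every other group. In perfused over unperfused livers the log2 fold change was −0.16 (SE 0.0831, adjusted p 0.343). The test of a difference between the changes of Txnrd1 and Txnrd2 was not made.

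**Figure D2:**
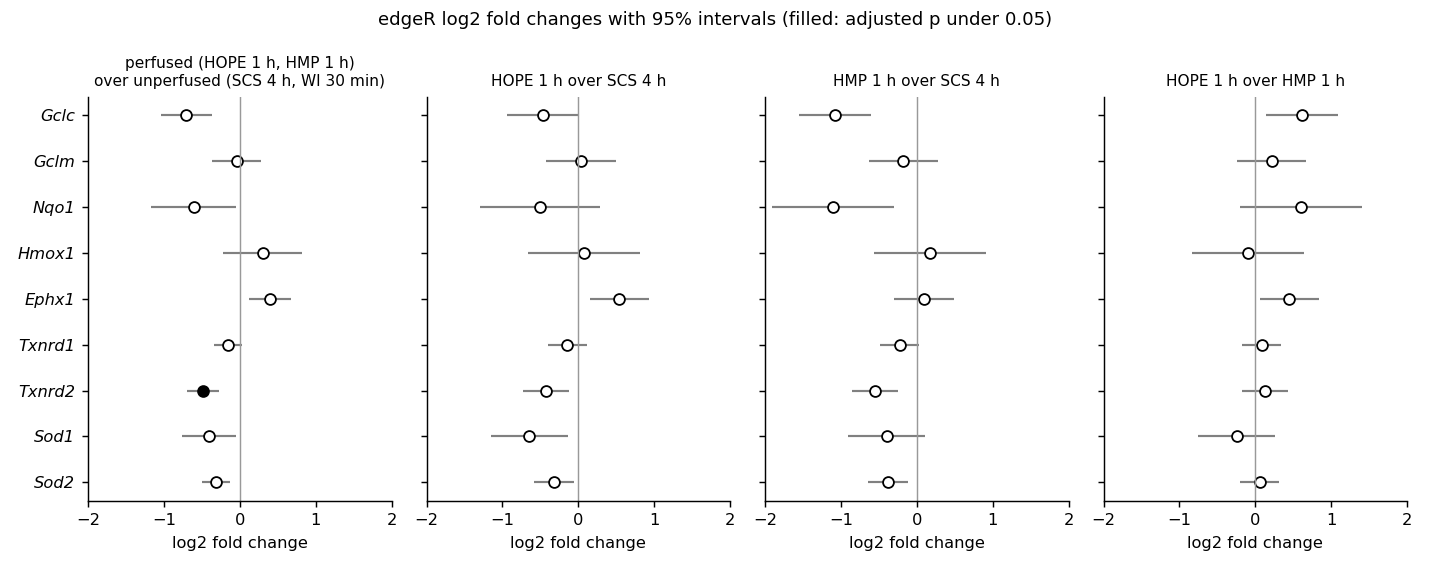
Log2 fold changes (horizontal axes) with 95% intervals from edgeR for the 9 genes in 4 comparisons, with a filled point where the adjusted p was under 0.05. Only Txnrd2 in the perfused over unperfused panel, at −0.49, is filled, and the intervals of HOPE 1 h over HMP 1 h include 0 for 7 of the 9 genes.

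Glutathione is made from glutamate and cysteine by glutamate-cysteine ligase, of which Gclc is the catalytic subunit and Gclm the modifier subunit. Gclc (ENSRNOG00000006302, chr8:85059051-85097468, plus strand) had 2483, 2359 and 2763 counts in HOPE 1 h livers and 1880, 1151 and 1520 counts in HMP 1 h livers, against 3448, 2826 and 3448 counts in SCS 4 h and 3333, 1948 and 3791 counts in WI 30 min livers. WI 30 min liver 2 was low within its group, at 122 CPM against 188 and 229 CPM in the other WI 30 min livers, and overlapped with the range of perfused livers (71.9 to 145 CPM). The means were 142 ± 2.63 CPM in HOPE 1 h, 93.1 ± 18.7 CPM in HMP 1 h, 196 ± 27.9 CPM in SCS 4 h and 180 ± 54.2 CPM in WI 30 min livers (SD, n = 3 each).

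The largest Gclc differences were those of HMP 1 h. Its level was 0.474-fold that of SCS 4 h (log2 fold change −1.08, SE 0.218) and 0.518-fold that of WI 30 min (−0.95, SE 0.218), with no overlap between livers. Neither was called by edgeR (adjusted p 0.0880 and 0.112). Perfused livers averaged 118 ± 29.4 CPM and unperfused livers 188 ± 39.6 CPM (SD, n = 6 each), with a log2 fold change of −0.71 (SE 0.153) and an adjusted p of 0.0533. Without WI 30 min liver 2 the log2 fold change was −0.82 and the adjusted p 0.0433, past the threshold. It was also past the threshold with other processing, as given in the closing section.

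HOPE 1 h livers had 1.53-fold the Gclc level of HMP 1 h livers, with no overlap (log2 fold change 0.61, SE 0.217, adjusted p 0.583). Against SCS 4 h the HOPE 1 h livers were lower without overlap (−0.47, SE 0.216, adjusted p 0.461), and against WI 30 min they lay within the range of the group (−0.34, adjusted p 0.687, with −0.56 without WI 30 min liver 2 and −0.13 without WI 30 min liver 3). The HOPE 1 h livers had the narrowest spread in Gclc of the 4 groups, between 140 and 145 CPM, and their mean stood between HMP 1 h and SCS 4 h.

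Gclm (ENSRNOG00000013409, chr2:225827504-225847874, plus strand) showed no such order. It ranged between 94.5 and 121 CPM in HOPE 1 h, 81.1 and 120 CPM in HMP 1 h, 85.8 and 120 CPM in SCS 4 h and 77.2 and 120 CPM in WI 30 min livers, and all groups overlapped. The perfused over unperfused log2 fold change was −0.04 with a 95% interval of −0.36 to 0.28 (adjusted p 0.905). As a description, the ratio of Gclc to Gclm in FPKM was 0.640 ± 0.0850 in HOPE 1 h, 0.493 ± 0.128 in HMP 1 h, 0.913 ± 0.190 in SCS 4 h and 0.844 ± 0.0837 in WI 30 min livers (SD, n = 3 each). This ratio was chosen after the values were seen and was not tested.

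Superoxide dismutases turn superoxide into hydrogen peroxide, Sod2 in the mitochondrial matrix and Sod1 mainly in the cytosol. The paper measured total superoxide dismutase in liver tissue with an enzyme assay and reported more of it in HMP and HOPE than in the other groups. The levels below are of RNA, and their relation to that assay was not tested. Sod2 (ENSRNOG00000019048, chr1:47914759-47921587, minus strand) had 1649, 1811 and 2070 counts in HOPE 1 h livers and 1609, 1649 and 1570 counts in HMP 1 h livers, against 2432, 2290 and 1730 counts in SCS 4 h and 2358, 1877 and 1969 counts in WI 30 min livers. In CPM every perfused liver (91.9 to 109) was below every unperfused liver (113 to 138), although the livers overlapped under scaling by library totals alone. Perfused livers averaged 101 ± 6.90 CPM and unperfused livers 126 ± 10.8 CPM (SD, n = 6 each), a log2 fold change of −0.32 (SE 0.0841) with an adjusted p of 0.0972, which missed the threshold.

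By group, Sod2 averaged 103 ± 8.11 CPM in HOPE 1 h, 99.4 ± 6.49 CPM in HMP 1 h, 129 ± 13.8 CPM in SCS 4 h and 123 ± 8.62 CPM in WI 30 min livers. The log2 fold change of HOPE 1 h over HMP 1 h was 0.06 (95% interval −0.20 to 0.31). In CPM, Sod2 and Txnrd2 were the 2 of the 9 genes in which perfused and unperfused livers did not overlap. Both were lower in perfused livers, as were 1.21% of all tested genes (0.621% were higher). Scaled by library totals alone, the livers overlapped in both genes.

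Sod1 (ENSRNOG00000002115, chr11:30363280-30368862, plus strand) had 5920, 5007 and 6849 counts in HOPE 1 h livers and 5462, 7253 and 6300 counts in HMP 1 h livers, against 10547, 9939 and 5557 counts in SCS 4 h and 7894, 8807 and 5423 counts in WI 30 min livers. The third liver of SCS 4 h (364 CPM) and of WI 30 min (328 CPM) stood low in their groups, near the perfused livers (297 to 453 CPM). The means were 331 ± 31.8 CPM in HOPE 1 h, 393 ± 72.9 CPM in HMP 1 h, 518 ± 134 CPM in SCS 4 h and 441 ± 111 CPM in WI 30 min livers (SD, n = 3 each). The HOPE 1 h livers lay below the SCS 4 h livers, by a gap of 359 to 364 CPM (log2 fold change −0.65, SE 0.233, adjusted p 0.349), and overlapped with the other groups. In perfused over unperfused livers the log2 fold change was −0.41 (SE 0.165, adjusted p 0.236).

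Ephx1 (ENSRNOG00000003515, chr13:99271366-99300579, minus strand) encodes microsomal epoxide hydrolase, which opens reactive epoxides to diols. Its counts were 11205, 11470 and 11544 in HOPE 1 h livers, against 7781, 7715 and 7381 in HMP 1 h, 8764, 8616 and 4788 in SCS 4 h and 7287, 6956 and 5715 in WI 30 min livers. The 3 HOPE 1 h livers were above all 9 other livers, as were 0.446% of all tested genes (0.606% were below), and SCS 4 h liver 3 was the lowest at 313 CPM. The means were 641 ± 37.1 CPM in HOPE 1 h, 471 ± 22.7 CPM in HMP 1 h, 441 ± 112 CPM in SCS 4 h and 397 ± 46.2 CPM in WI 30 min livers (SD, n = 3 each).

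HOPE 1 h livers had 1.36-fold the Ephx1 level of HMP 1 h livers (log2 fold change 0.45, SE 0.179, adjusted p 0.624), 1.45-fold that of SCS 4 h livers (0.54, SE 0.179, adjusted p 0.326) and 1.62-fold that of WI 30 min livers (0.69, SE 0.179, adjusted p 0.363). None was called by edgeR, and the value over SCS 4 h was 0.34 without SCS 4 h liver 3. The share of counts on the mitochondrial genome was also higher in every HOPE 1 h liver (6.56% to 10.2%) than in any other liver but HMP 1 h liver 1, and its part in the Ephx1 level was not tested. The 95% intervals of the log2 fold changes were 0.06 to 0.84 over HMP 1 h, 0.15 to 0.93 over SCS 4 h and 0.30 to 1.08 over WI 30 min. The HMP 1 h livers had a log2 fold change of 0.09 over SCS 4 h (95% interval −0.30 to 0.48) and of 0.25 over WI 30 min (−0.14 to 0.64), above the WI 30 min livers without overlap.

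Nqo1 (ENSRNOG00000012772, chr19:38422164-38437180, plus strand), a quinone reductase often used as a readout of Nrf2, varied widely between livers of a group. It had 410, 839 and 482 counts in HOPE 1 h livers and 290, 405 and 348 counts in HMP 1 h livers, against 1238, 637 and 484 counts in SCS 4 h and 501, 437 and 834 counts in WI 30 min livers. In CPM the HMP 1 h livers (16.6 to 25.3) lay below all unperfused livers (27.3 to 69.4), and HOPE 1 h liver 2 (49.7 CPM) was above the other perfused livers. The means were 32.8 ± 14.7 CPM in HOPE 1 h, 21.6 ± 4.51 CPM in HMP 1 h, 46.5 ± 20.1 CPM in SCS 4 h and 35.3 ± 13.1 CPM in WI 30 min livers (SD, n = 3 each). HMP 1 h was 0.464-fold SCS 4 h (log2 fold change −1.11, SE 0.368, adjusted p 0.206), and HOPE 1 h over HMP 1 h was 0.60 on the log2 scale (SE 0.366, adjusted p 0.757). These values moved with single livers, to −0.70 for HMP 1 h over SCS 4 h without SCS 4 h liver 1, and to 0.17 for HOPE 1 h over HMP 1 h without HOPE 1 h liver 2.

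Hmox1 (ENSRNOG00000014117, chr19:14508616-14515456, plus strand) encodes heme oxygenase 1, which degrades heme and which is high in macrophages that take up red blood cells. It had 789, 600 and 878 counts in HOPE 1 h livers, 1271, 648 and 341 counts in HMP 1 h livers and 624, 506 and 843 counts in SCS 4 h livers, against 562, 498 and 512 counts in WI 30 min livers. The WI 30 min livers were nearly alike (30.9 to 31.7 CPM) and lay below the HOPE 1 h livers (35.6 to 46.1 CPM), while HMP 1 h livers spread between 22.4 and 72.6 CPM. The log2 fold change of HOPE 1 h over WI 30 min was 0.43 (SE 0.338, adjusted p 0.732), and that of perfused over unperfused livers was 0.30 (SE 0.239, adjusted p 0.538). Without HMP 1 h liver 1 the perfused over unperfused value was 0.04, and without HMP 1 h liver 3 it was 0.47.

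The highest Hmox1 level, 72.6 CPM, was in HMP 1 h liver 1, the liver with the highest Kupffer cell and macrophage marker sum. That sum covers 9 of the 10 listed markers, none of which was at 0 in any liver, and it ranged between 539 and 1088 CPM in HOPE 1 h, 558 and 1754 CPM in HMP 1 h, 646 and 748 CPM in SCS 4 h and 468 and 600 CPM in WI 30 min livers. Without HMP 1 h liver 1 the log2 fold change of HOPE 1 h over HMP 1 h was 0.40, against −0.10 with it. Red blood cell markers (7 of 9 listed) summed to 1233 to 1879 CPM in HOPE 1 h, 268 to 2608 CPM in HMP 1 h, 577 to 1820 CPM in SCS 4 h and 3472 to 4689 CPM in WI 30 min livers. The WI 30 min livers, with the most of these transcripts, had the lowest group mean of Hmox1 (31.3 ± 0.396 CPM, SD, n = 3). The part of either cell type in the Hmox1 levels was not tested.

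**Figure D3:**
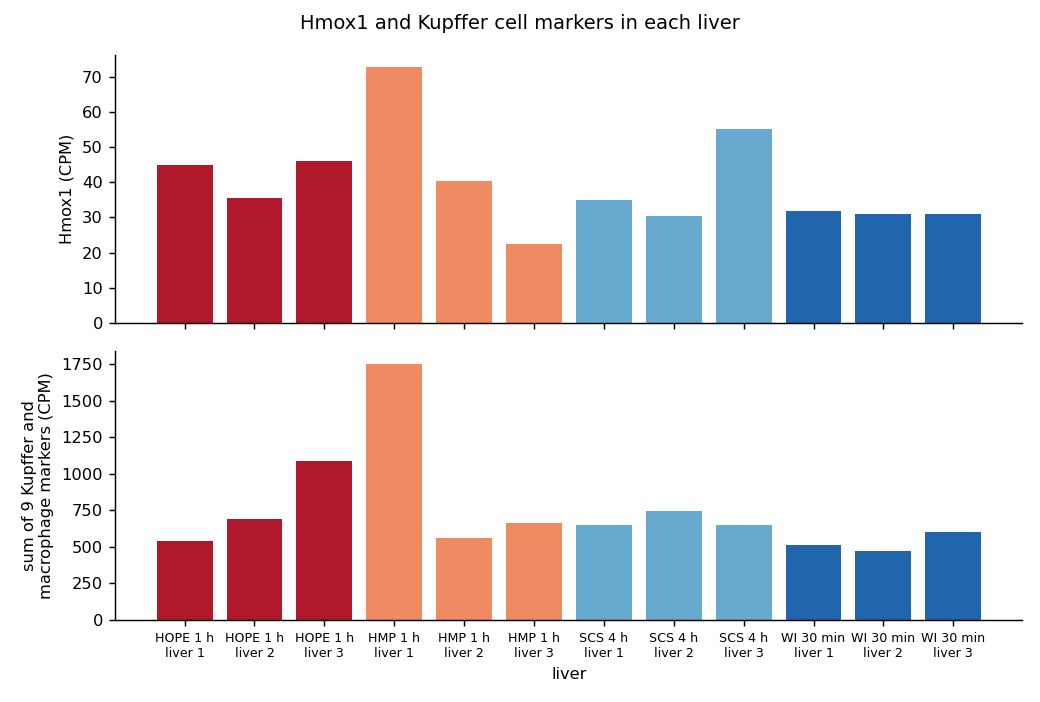
Hmox1 (upper bars, CPM) and the summed level of 9 Kupffer cell and macrophage markers (lower bars, CPM) in each of the 12 livers, coloured by group. HMP 1 h liver 1 is highest in both, at 72.6 and 1754 CPM, and HMP 1 h liver 3 has the lowest Hmox1 at 22.4 CPM with a marker sum of 661 CPM.

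Pairs of groups gave no called gene, among these 9 or among all 13687 tested genes (0% in each of the 6 pairs and in the test of any difference among the 4 groups). At an unadjusted p under 0.05 edgeR counted 2 of the 9 for HOPE 1 h over HMP 1 h (7.48% of all genes), 4 for HOPE 1 h over SCS 4 h (10.9%) and 2 for HOPE 1 h over WI 30 min (8.57%). It counted 4 for HMP 1 h over SCS 4 h (14.5%), 3 for HMP 1 h over WI 30 min (13.8%) and 0 for SCS 4 h over WI 30 min (4.77%). DESeq2 at an adjusted p under 0.05 called 0 of the 9 for HOPE 1 h over HMP 1 h (0.11% of all genes) and over SCS 4 h (1.49%), 1 for HOPE 1 h over WI 30 min (0.709%), 2 each for HMP 1 h over SCS 4 h (3.2%) and over WI 30 min (2.83%), and 0 for SCS 4 h over WI 30 min (0.11%). In the test of any difference DESeq2 called 3 of the 9 (4.14%), and edgeR counted 4 at an unadjusted p under 0.05 (12.3%).

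The livers of HOPE 1 h and HMP 1 h did not overlap in 2 of the 9 genes, Ephx1 and Gclc, both higher in HOPE 1 h, as were 6.22% of all genes, and 0 of the 9 were lower (4.89%). Against SCS 4 h, HOPE 1 h livers were higher without overlap in 1 gene (8.97% of all genes) and lower in 5 genes (10.3%), and HMP 1 h livers were higher in 0 (7.29%) and lower in 5 (10.6%). Gclc, Sod2, Txnrd1 and Txnrd2 were in both sets of 5, with Sod1 for HOPE 1 h and Nqo1 for HMP 1 h, and both comparisons share the 3 SCS 4 h livers. Against WI 30 min, HOPE 1 h livers were higher in 2 (8.77%) and lower in 2 (7.42%), and HMP 1 h livers higher in 1 (7.57%) and lower in 4 (8.45%). SCS 4 h and WI 30 min livers overlapped in all 9 genes, with 7.13% of all genes higher and 5.86% lower. Scaled by library totals alone, HOPE 1 h and SCS 4 h livers overlapped in Sod1, Sod2, Txnrd1 and Txnrd2, and HMP 1 h and WI 30 min livers overlapped in Ephx1 and no longer in Txnrd1.

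How the 9 genes varied together was described over the 12 livers from log2 CPM, for 36 pairs. Adjusted over those pairs, 2 passed the threshold, both positive. Txnrd2 and Sod2 had Pearson's r of 0.905 (permutation p 5e-05, adjusted 0.0018) and Spearman's rho of 0.909, with r of 0.851 without SCS 4 h liver 2 and WI 30 min liver 1. Since both genes separated perfused and unperfused livers, r was also taken within each set of 6, where it was 0.29 in perfused (exact permutation p 0.537) and 0.83 in unperfused livers (exact permutation p 0.0569), and the deviations from group means had r of 0.659 (adjusted p 0.145).

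Gclc and Txnrd1 had r of 0.859 (permutation p 0.00047, adjusted 0.00846) and rho of 0.804 (permutation p 0.00273, adjusted 0.0491), with r of 0.673 without HMP 1 h liver 2 and WI 30 min liver 3. Within the perfused livers r was 0.77 (exact permutation p 0.0833) and within the unperfused livers 0.76 (exact permutation p 0.0806). Within each set the relation did not hold without the 2 farthest livers, with r of 0.32 in perfused and −0.30 in unperfused livers. The ligase subunits Gclc and Gclm had r of 0.502 (adjusted permutation p 0.251).

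Taken as deviations from group means, 3 of the 36 pairs passed the threshold, Gclc and Txnrd1 (r 0.774, adjusted permutation p 0.0444), Ephx1 and Sod1 (r 0.818, adjusted 0.0173) and Gclc and Sod1, with a negative sign (r −0.81, adjusted 0.0268). By rank none of the 3 passed after adjustment (adjusted permutation p of rho 0.110, 0.0590 and 0.0590). The permutations exchanged deviations freely over all livers, although the deviations within a group are tied by its mean. Permutation p-values of deviations are therefore too small, and the 3 pairs are given as a description. Over the levels themselves, Ephx1 and Sod1 had r of −0.09 and Gclc and Sod1 had r of 0.00506. Without SCS 4 h liver 3 and WI 30 min liver 3, which were low in both genes within their groups, the deviations of Ephx1 and Sod1 had r of 0.589, and without WI 30 min livers 2 and 3 those of Gclc and Sod1 had r of −0.71.

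**Figure D4:**
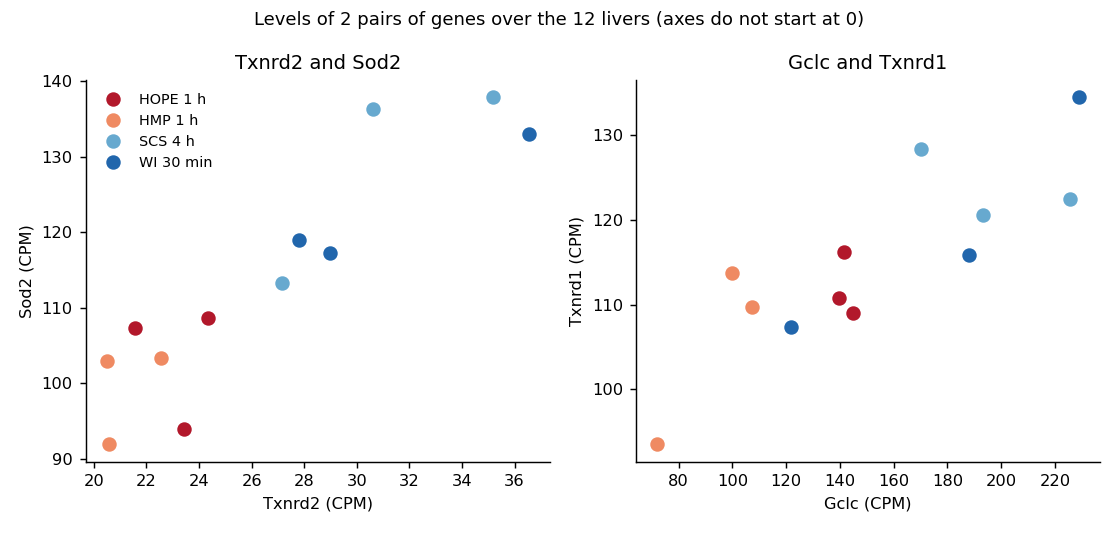
Levels in CPM of Txnrd2 against Sod2 (left) and of Gclc against Txnrd1 (right), with 1 point per liver coloured by group and axes that do not start at 0. The 6 perfused livers sit at the lower left of the Txnrd2 and Sod2 plot, with at most 24.3 CPM of Txnrd2, and HMP 1 h liver 2 is lowest in both Gclc and Txnrd1.

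For each of the 9 genes the pair of genes most like it was taken by Pearson's r over the 12 livers, among 8965 genes with a symbol and a mean of at least 5 CPM. Sod2 was most like Psmc2 (r 0.952) and Psmd2 (0.950), which encode subunits of the proteasome's regulatory particle, and Txnrd2 was most like Chchd6 (0.947), part of the mitochondrial MICOS complex, and Acot8 (0.940), a peroxisomal thioesterase. Gclc was most like Alg12 and Stip1 (both 0.925), Txnrd1 like Sgk2 (0.919) and Gclc (0.859), and Stk35 (0.899) was among those most like Gclm. Hmox1 was most like Cd200r1 (0.877), a receptor of myeloid cells, and Cd93 (0.870), a surface protein of endothelial and myeloid cells. Ephx1 was most like Zgpat (0.880) and Hook2 (0.860), Nqo1 like Cdk5 (0.894) and Mmadhc (0.880), and Sod1 like AABR07002969.1 (0.950) and AABR07053687.1 (0.936). These values were picked as the highest of many and come from the same libraries.

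Genes of the same pathways were followed through lists of other glutathione, thioredoxin, peroxide and Nrf2 genes. In the glutathione list, 17 of 20 genes were tested, and 1 was called in perfused against unperfused livers (1.02% of all genes). Oplah, the oxoprolinase that returns glutamate to glutathione synthesis, fell to 66.0 ± 6.74 CPM in perfused livers, against 99.3 ± 15.7 CPM in unperfused livers (SD, n = 6 each), with a log2 fold change of −0.59 (SE 0.114, edgeR adjusted p 0.0415). The call was lost without any 1 of 9 livers, all but HOPE 1 h liver 2, SCS 4 h liver 3 and WI 30 min liver 3 (adjusted p 0.0533 to 0.123). At an unadjusted p under 0.05, 2 genes were higher and 6 lower (8.82% and 8.85% of all genes), and the median log2 fold change was −0.12 (0.03 over all genes). Glrx, a glutaredoxin that uses glutathione to reduce oxidized protein thiols, had 40.1 ± 7.63 CPM in perfused and 65.3 ± 15.6 CPM in unperfused livers without overlap (−0.72, adjusted p 0.0553).

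In the thioredoxin and peroxiredoxin list, 15 of 15 genes were tested, and edgeR called 0, with 1 higher and 5 lower at an unadjusted p under 0.05 (8.82% and 8.85% of all genes) and a median of −0.14. Prdx1, a cytosolic peroxiredoxin, had 364 ± 54.1 CPM in perfused and 489 ± 40.5 CPM in unperfused livers (log2 fold change −0.44, SE 0.0958, adjusted p 0.0553). Msra, which repairs oxidized methionine, followed another order. It was at 11.6, 9.36 and 9.08 CPM in HOPE 1 h and 14.1, 20.1 and 13.2 CPM in HMP 1 h livers, against 21.5, 16.9 and 19.1 CPM in SCS 4 h and 10.04, 9.93 and 7.43 CPM in WI 30 min livers. HOPE 1 h livers were below both HMP 1 h and SCS 4 h livers and overlapped with WI 30 min livers, and SCS 4 h over WI 30 min was 1.07 on the log2 scale (SE 0.195, adjusted p 0.351).

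In the list of superoxide and peroxide removal, 7 of 7 genes were tested, and edgeR called 0, with 3 higher and 0 lower at an unadjusted p under 0.05 (8.82% and 8.85% of all genes) and a median of 0.12. Mt1, a metal-binding metallothionein, ranged between 132 and 175 CPM in HOPE 1 h and 126 and 212 CPM in HMP 1 h livers, against 101 and 193 CPM in SCS 4 h and 90.3 and 102 CPM in WI 30 min livers (perfused over unperfused log2 fold change 0.53, SE 0.172, adjusted p 0.157). Sod3, the extracellular superoxide dismutase, had 43.7 ± 17.1 CPM in perfused and 25.2 ± 5.07 CPM in unperfused livers (log2 fold change 0.80, SE 0.227, adjusted p 0.115), with the highest level, 75.2 CPM, in HMP 1 h liver 1. Its sign was thus opposite to those of Sod1 and Sod2.

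Among the other Nrf2 targets, 22 of 26 listed genes were tested, and 1 was called in perfused against unperfused livers (1.02% of all genes). Ugdh, which makes the UDP-glucuronate used in conjugation, fell to 125 ± 15.6 CPM in perfused livers, against 177 ± 21.4 CPM in unperfused livers (SD, n = 6 each) without overlap, with a log2 fold change of −0.51 (SE 0.106, edgeR adjusted p 0.0475). The call was lost without any 1 of 10 livers, all but HMP 1 h liver 3 and WI 30 min liver 3 (adjusted p 0.0620 to 0.133). The median of the list was −0.35, with 16 negative and 6 positive, and 1 gene higher and 6 lower at an unadjusted p under 0.05 (8.82% and 8.85% of all genes). Blvrb, a biliverdin reductase, had 64.7 CPM in perfused and 94.6 CPM in unperfused livers (−0.55, adjusted p 0.0517).

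Of the 12 regulators of Nrf2, all tested, edgeR called 0, with 0 higher and 2 lower at an unadjusted p under 0.05 (8.82% and 8.85% of all genes) and a median of −0.09. Nfe2l2, which encodes Nrf2 itself, had 64.8 ± 14.3 CPM in perfused and 69.9 ± 13.9 CPM in unperfused livers (log2 fold change −0.11, SE 0.166, adjusted p 0.774). Keap1 had 45.9 ± 2.26 CPM in perfused and 48.2 ± 4.92 CPM in unperfused livers (−0.07, SE 0.0800, adjusted p 0.680). Dpp3, a peptidase that binds Keap1, had 60.1 ± 7.29 CPM in perfused and 76.7 ± 6.91 CPM in unperfused livers (−0.36, adjusted p 0.0612), and Rbx1, part of the ligase that marks Nrf2 for degradation, had a log2 fold change of −0.32 (SE 0.129, adjusted p 0.236). Nrf2 is regulated mainly at the level of the protein, which was not measured in these libraries.

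**Figure D5:**
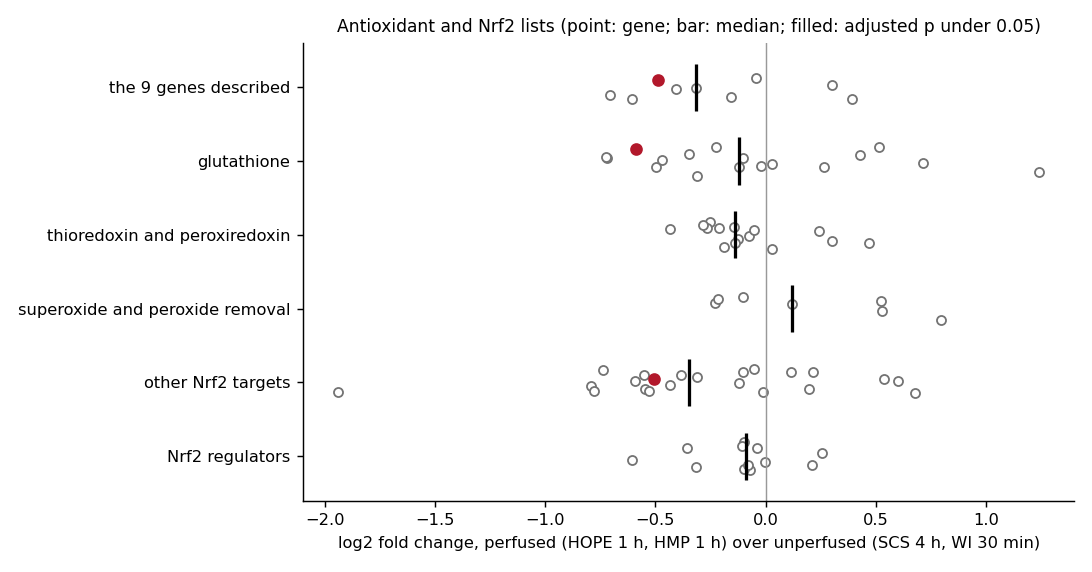
Log2 fold changes of perfused over unperfused livers (horizontal axis) for the 9 genes and for 5 lists of related genes, with 1 point per gene, a bar for the median of the list and a filled point where the adjusted p was under 0.05. The filled points are Txnrd2, Oplah and Ugdh, all below 0, and the medians run between −0.35 and 0.12.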

How the data were processed

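Liver RNA-seq of 12 rats in 4 groups was analysed from 1 table that covers all libraries. The authors aligned reads to Rnor_6.0 with Hisat2, and the unscaled read counts of each gene and library were deposited. Neither the counting tool nor its use of strand is given in the sources used here. Also deposited were FPKM values, in which counts are scaled by library total and gene length, and these were used for levels between genes only. Columns of the authors' own comparisons, which hold group means, log2 fold changes, p-values and adjusted p-values, were not used. Each column of values was assigned to a liver by its name, with 0 left unmatched.

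Genes kept by filterByExpr (13687 of 33744) entered edgeR's quasi-likelihood F test (edgeR 4.0.16, limma 3.58.1, R 4.3.3) after TMM scaling, with 1 mean per group over all 12 livers, 8 residual degrees of freedom and a common dispersion of 0.0733. P-values were adjusted by Benjamini-Hochberg over all tested genes and a gene was called under 0.05. CPM are counts relative to the TMM-scaled library total, and their log2 had a prior count of 2. Correlations used 100000 permutations, two-sided, adjusted over 36 pairs of the 9 genes found, and exact permutation within sets of 6 livers (numpy 2.4.6, scipy 1.17.1). The p-values of edgeR set differences of group means against the spread between these livers, and those of the permutations concern association over the livers. The lowest count of a described gene was 290, for which counting error alone is 5.87%.

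The genes and the lists were chosen with earlier results of these data known. Besides the members, each list names the pair of genes with the lowest p in the test of any difference among the 4 groups, plus Nfe2l2 and Keap1. Alternatives were DESeq2 1.42.0, RLE scaling, library totals alone, testing without a filter, a model of the compared groups alone, a replicate block, a prior count of 0.5, deviations from group means and leaving out each library. Chosen after seeing the data were an unadjusted threshold of 0.05 and leaving out HMP 1 h liver 1 and HOPE 1 h liver 3 together. The tests were run on simulated data with known changes first. Of genes given a 2-fold change there, 54.7% were called for perfused against unperfused livers and 21.9% for HOPE 1 h over WI 30 min. At a 1.5-fold change the shares were 16.4% and 1.37%. Srxn1 was not analysed here. Some results on genes outside the list are not reported here. Promoter windows came from RefSeq (GRCr8) by gene symbol, and coordinates of genes are those of Rnor_6.0.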

Additional observations from a re-analysis of the deposited data

Results flagged for a closer look

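In each of the 9 genes the 6 perfused and the 6 unperfused livers were searched for a liver far from the others, 18 sets in all, of which chance alone gives about 5% at each search. The Nqo1 level of HOPE 1 h liver 2, 49.7 CPM, stood far above the other perfused livers, the next of which had 25.3 CPM. The Txnrd1 level of HMP 1 h liver 2, 93.5 CPM, was far below the other perfused livers, the next of which had 109 CPM. The Hmox1 level of SCS 4 h liver 3, 55.2 CPM, was far above the other unperfused livers, the next of which had 35.0 CPM. Each of these 3 livers was flagged in 1 gene only, but each was also at an end of the range in others. Among unperfused livers, SCS 4 h liver 3 was lowest in Ephx1, Sod2 and Txnrd2. Among perfused livers, HMP 1 h liver 2 was lowest in Gclc, Gclm and Txnrd2, and HOPE 1 h liver 2 was highest in Gclm and Ephx1.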

How the results depend on the processing

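Of 1188 values of the 9 genes over all comparisons and alternatives, 1131 kept their sign and their side of the threshold, 24 crossed the threshold and 33 had the other sign, of which 1 belonged to a value that was over 1 SE from 0. Only 1 main value was called, so nearly all others could only stay uncalled or gain a call. That value, Txnrd2 in perfused over unperfused livers, lost its call in 13 alternatives. For perfused over unperfused livers, 1 of the 9 genes was called, with 3 by DESeq2, 2 with library totals alone, 2 without a filter, 6 at an unadjusted p under 0.05, 0 with HMP 1 h liver 1 and HOPE 1 h liver 3 both left out and 0 to 1 without each liver in turn. Gclc was the added gene in these (adjusted p 0.0301 with library totals, 0.0348 without a filter, 0.00102 by DESeq2), joined by Sod2 with DESeq2 (adjusted p 0.00885). Over all genes 140 were called, with 743 by DESeq2, 306 with library totals, 197 without a filter and 61 with both livers left out. Between pairs, where edgeR called 0 of the 9, DESeq2 called 1 for HOPE 1 h over WI 30 min (Ephx1, adjusted p 0.0491) and 2 each for HMP 1 h over SCS 4 h and over WI 30 min (Gclc and Txnrd2), and 3 in the test of any difference. At an unadjusted p under 0.05 the counts were 2 for HOPE 1 h over HMP 1 h, 4 over SCS 4 h and 2 over WI 30 min, 4 for HMP 1 h over SCS 4 h and 3 over WI 30 min, and 4 for any difference. The Hmox1 log2 fold change of HOPE 1 h over HMP 1 h, −0.10, was 0.40 without HMP 1 h liver 1 and between −0.44 and 0.40 without each liver in turn, and 0.34 with both livers left out. Txnrd2 and Sod2 had r of 0.659 as deviations from group means. Except for the left-out livers, the cause was not tested.

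Livers of the same replicate number did not deviate together (r between −0.19 and 0.14, over 0.1 in 1 of 18 pairs), and the numbers were not taken to pair livers. As a hint from the data, the best match had the same number in 20 of 36 cases, where picking 1 of 3 at random gives 12. With the replicate block, 66 genes were called over perfused and unperfused livers, Txnrd2 had a log2 fold change of −0.48 (edgeR adjusted p 0.0754) and Gclc of −0.69 (adjusted p 0.0422), the Ugdh call was lost (adjusted p 0.0843), and the count of the 9 stayed at 1 with a different gene. With 3 livers per group, the 95% intervals of the pairs stay wide, such as −0.20 to 1.40 on the log2 scale for Nqo1 in HOPE 1 h over HMP 1 h.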

Other observations

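Summed cell markers differed between livers beside the levels above. Hepatocyte markers (8 of 8 listed) summed to 129036 to 164123 CPM in HOPE 1 h and 122326 to 169403 CPM in HMP 1 h livers. In SCS 4 h livers the sum ran between 113318 CPM (liver 2) and 186594 CPM (liver 3), the lowest and highest of all livers. WI 30 min livers had 146431 to 160150 CPM. Sinusoidal endothelial markers (6 of 7 listed) summed to 366 to 949 CPM in HOPE 1 h, 419 to 855 CPM in HMP 1 h, 390 to 545 CPM in SCS 4 h and 363 to 412 CPM in WI 30 min livers. Stellate cell markers (6 of 6 listed) summed to 244 to 371 CPM in HOPE 1 h, 197 to 457 CPM in HMP 1 h, 219 to 233 CPM in SCS 4 h and 166 to 204 CPM in WI 30 min livers. Their part in the levels of the antioxidant genes was not tested.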
